A study of Neurospora crassa with 24 samples.

Results

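The genes described here are 100 of the 9730 *Neurospora crassa* loci in the deposited files, and they were selected on their measured values in the WT strain. A locus was taken when its WT level lay at least 1 higher without carbon than at 0.05% glucose, and at least 1 higher at 0.05% than at both 0.5% and 2% glucose, on the scale of the mean log2(FPKM + 1) of 2 libraries. FPKM set the fragments of a gene against its length and against all fragments of its library, so they allow levels to be compared between genes. The WT mean without carbon also had to exceed 20 FPKM, which 3450 loci did. Of those, 1391 met the first of the falls and 100 met all of them. Because the WT libraries chose the genes, their WT values and every difference between a mutant and the WT are given as a description with no test. Tests were run only within the mutants and between them, so no WT library enters the differences tested. The variance of each gene was estimated from all 24 libraries, the WT ones included. The filter on low values counted the WT groups too.

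RNA was sequenced from mycelium of 3 strains in 4 media, with 2 libraries for each combination and 24 in all. Δ*rco-3* and Δ*col-26* are strains deleted for *rco-3*, which codes for a glucose sensor of the plasma membrane that resembles a transporter, and for *col-26*, which codes for a transcription factor. Each mutant is 1 strain of the stock center's deletion collection, given as mat a, and the WT is the reference strain of that stock center. All cultures, the WT ones included, grew for 16 h at 28 °C in 2% sucrose, were washed and were then held for 1 h without a carbon source or in 0.05, 0.5 or 2% glucose. Per the study's methods the 2 libraries of a group are independent duplicates.

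Reads of *rco-3* were at 0 FPKM in all 8 Δ*rco-3* libraries, against 5.97 to 21.0 FPKM in the WT. Reads of *col-26* were not at 0 in Δ*col-26*, where they gave 4.91 to 10.6 FPKM, against 16.7 to 39.6 FPKM in the WT, and they were lower than the WT in each medium. Conidia are the other cell type that such a culture can hold. The summed level of their markers *con-6*, *con-8*, *con-10* and *con-13* without carbon was 1122 to 1173 FPKM in Δ*rco-3* mycelium and 1650.3 to 1658 FPKM in Δ*col-26* mycelium, against 105 to 106 FPKM in the WT. At 2% glucose it was 100.0 to 104 FPKM in Δ*rco-3* mycelium and 66.5 to 67.9 FPKM in Δ*col-26* mycelium, against 1.94 to 2.18 FPKM in the WT. All 4 markers were lower at 2% glucose than without carbon in each strain, so they moved with the medium in the direction of the genes described here, and their sum differed between the strains in every medium. *con-13* stayed below 2 FPKM in every library and was at 0 in the WT on glucose. Their part in the results was not tested. In bulk RNA fewer cells of a type and less RNA per cell cannot be told apart.

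In carbon catabolite repression, genes for taking up and breaking down alternative nutrients are kept off while sugar that is easily used is at hand. Cells without a carbon source draw on fatty acids, amino acids and stored sugars. Acetyl-CoA from fatty acids then passes through the glyoxylate cycle and gluconeogenesis to make sugar phosphates, and high-affinity transporters at the plasma membrane collect what glucose is left outside. *N. crassa* also makes asexual spores, the conidia, when it runs short of carbon.

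In the WT, the median level of the 100 genes was 213 FPKM without carbon, 18.2 FPKM at 0.05%, 5.67 FPKM at 0.5% and 5.53 FPKM at 2% glucose. Together they held 14.7% of all summed FPKM of the starved WT and 0.261% at 2% glucose. The median WT difference was 3.05 between no carbon and 0.05%, 1.57 between 0.05% and 0.5%, and 0.05 between 0.5% and 2%, all on the log2(FPKM + 1) scale. The first and second of these differences are set by the selection, while the one between 0.5% and 2% is not. All genes tested had WT medians of 0.49, -0.18 and -0.03 over the same 3 steps. The shares that follow are not corrected for this shift of the whole. The difference between no carbon and 0.05% made up a median of 60.7% of the whole difference between no carbon and 2%, and more than 50% of it in 76 of the 100 genes. The share ran from 17.9% in *gla-1* to 86.4%, and after *gla-1* the lowest shares were those of NCU06524 at 22.6%, NCU04963 at 23.5% and *hgt-1* at 26.1%. For these 4 genes most of the WT fall therefore lay between 0.05% and 0.5% glucose.

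**Figure D1:**
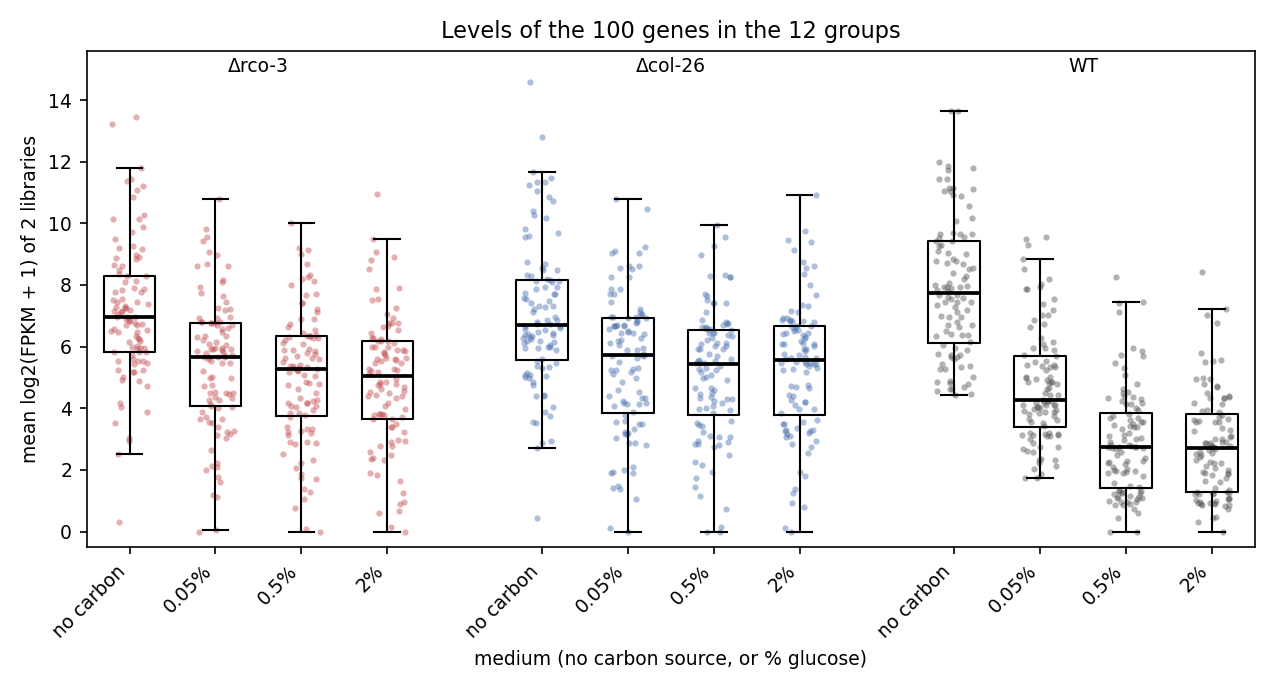
Mean log2(FPKM + 1) of the 100 genes (points) in the 12 groups, as boxes of the median and quartiles with whiskers to the farthest point within 1.5 times the interquartile range, with Δrco-3 at the left, Δcol-26 in the middle and WT at the right, and in each strain the media in order of glucose. The WT median is the highest of the 3 strains without carbon (213 FPKM) and the lowest in the other media (5.53 FPKM at 2% glucose, against 31.9 and 46.0 FPKM in the mutants).

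In both mutants most of the genes fell between no carbon and 0.05% glucose, with 68 called in Δ*rco-3* and 58 in the Δ*col-26* mutant, but few fell by 1 or more again between 0.05% and 0.5%. In Δ*rco-3* the median level was 123 FPKM without carbon and 50.1, 37.5 and 31.9 FPKM at 0.05, 0.5 and 2% glucose. The Δ*col-26* medians were 103, 52.4, 41.9 and 46.0 FPKM in the same order. Group means fell strictly over the 4 media in 62 of the genes in Δ*rco-3* and in 14 in the Δ*col-26* mutant. In the WT, where only the last step was free to differ, there were 57. The share of all genes with a strict fall was not counted. The smaller fall between 0.05% and 0.5% was seen in nearly every gene, being below that of the WT in 100 of 100 genes in Δ*rco-3* and in 98 in the Δ*col-26* mutant. The WT values chose the genes for a large fall in that step, so the comparison with the WT is a description.

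A change was called at an adjusted p below 0.001 in limma (Benjamini-Hochberg over the 7981 genes tested), a difference of at least 1 on the log2(FPKM + 1) scale and a mean above 20 FPKM in a group compared. From no carbon to 0.05% glucose, 68 of the 100 genes fell in Δ*rco-3* and none rose, while with median-ratio scaling 63 fell and 1 rose. Of all genes tested, 9.84% fell in this comparison. The median difference was 1.71 in the 100 genes and 0.23 in all genes tested. In Δ*col-26* 58 of the genes fell over this step, beside 11.1% of all genes, and 3 rose, beside 10.6%. The median difference was 1.44 in the 100 genes and 0.16 in all genes tested. A fall over this step was called in both mutants for 51 of the genes and in neither for 25. The matching shares of all genes were not counted, but that for both mutants cannot exceed the 9.84% that fell in Δ*rco-3*. The members above 20 FPKM in a group compared, and so able to be called, numbered 92 in Δ*rco-3* and 91 in the Δ*col-26* mutant. The same number for all genes tested was not counted. Their median level without carbon was 17.9 FPKM in Δ*rco-3* and 13.5 FPKM in Δ*col-26*. The members were selected above 20 FPKM in the WT, so the shares of all genes are not matched for level.

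From 0.05% to 0.5% glucose, none of the genes was called in Δ*rco-3*, beside 0.0501% of all genes that fell. The limma test without the other 2 criteria gave an adjusted p below 0.001 for 63 of them and an unadjusted p below 0.05 for 90, at a median difference of 0.36, so the falls were mostly smaller than 1. In Δ*col-26* 9 genes fell over this step, beside 0.2% of all genes. These were *acu-3*, *acu-8*, *acu-9*, *fbp-1*, NCU03415, NCU04078, NCU08561, NCU09698 and NCU10732, with differences from 1.16 to 1.59. In Δ*col-26* 6 genes were called as falling in both steps, and in Δ*rco-3* there were 0. The share of all genes was not counted, but in Δ*col-26* it cannot exceed the 0.2% that fell over the second step. The WT selection also required a level at 0.05% at least 1 above that at 2% glucose. Of the 6, *fbp-1* and NCU10732 did not meet this. They fell by 1.29 and 1.19 from 0.05% to 0.5%, and 0.5% minus 2% was -0.58 and -0.89. Leaving out any 1 mutant library left the counts of falls from 0.05% to 0.5% at 0 and 9. The median difference in Δ*col-26* was 0.24 in the 100 genes and 0.01 in all genes tested. From 0.05% to 2% glucose, given as a description, the order of the mutants was the other way. There 19 genes lay at least 1 higher at 0.05% in Δ*rco-3*, beside 1.55% of all genes, and 0 lay at least 1 lower. In Δ*col-26* 8 lay at least 1 higher, beside 0.363%, and 5 at least 1 lower, beside 1.44%. The medians of this difference were 0.50 in Δ*rco-3* and 0.14 in the Δ*col-26* mutant.

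**Figure D2:**
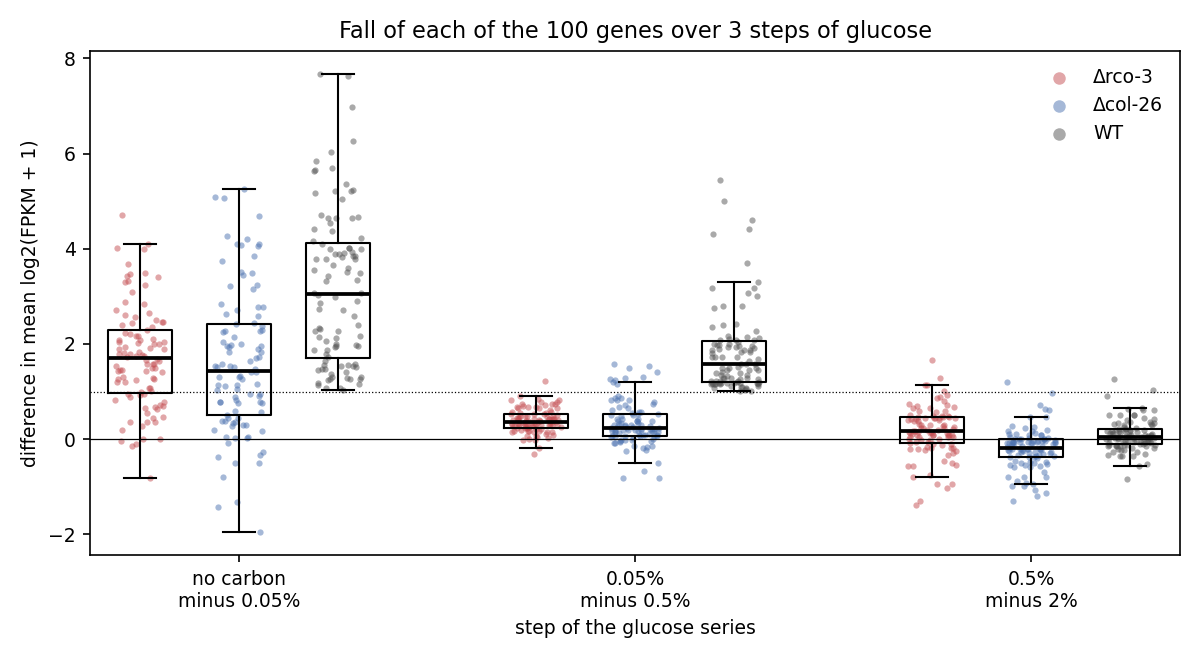
Difference in mean log2(FPKM + 1) of each of the 100 genes (points) over the 3 steps of the glucose series, as boxes of the median and quartiles with whiskers as in the plot of levels, with Δrco-3 left, Δcol-26 in the middle and WT right in each step. The dotted line marks a difference of 1. For 0.05% minus 0.5% the medians are 0.36 in Δrco-3 and 0.24 in Δcol-26, against 1.57 in the WT, where all points lie above 1 by selection.

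From 0.5% to 2% glucose, 5 genes fell in Δ*rco-3*, beside 0.213% of all genes, and 2 rose, beside 0.589%. The 5 were NCU00195, annotated as an MFS transporter, with NCU04496, NCU04963, NCU06043 and NCU09698, and the 2 were NCU04635 and NCU07061. In Δ*col-26* 1 gene fell, beside 0.0501% of all genes, and 3 rose, beside 0.426%. Without replicate 2 of Δ*col-26* at 2% glucose 1 fell and 6 rose, and with a pseudocount of 5 only 2 genes were called. NCU07748 was the gene that fell, and *eas*, NCU04635 and NCU07061 were the 3 that rose. NCU04635 and NCU07061 thus rose from 0.5% to 2% glucose in both mutants, by 1.38 and 1.02 in Δ*rco-3* and by 1.31 and 1.07 in Δ*col-26*. NCU00195, NCU04635, NCU07061 and NCU10732 were named after their values were seen.

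Over the whole range, 78 of the genes were called as lower at 2% glucose than without carbon in Δ*rco-3*, beside 11.2% of all genes, and none as higher. In Δ*col-26* 63 were lower, beside 10.3%, and 1, *acu-8*, was higher, beside 10.5%. The fall was called in both mutants for 59 genes and in neither for 18. The matching shares of all genes were not counted, but that for both mutants cannot exceed the 10.3% that fell in Δ*col-26*. The median difference between no carbon and 2% was 2.27 in Δ*rco-3* and 1.57 in the Δ*col-26* mutant, against 4.95 in the WT. All genes tested had medians of 0.30 and 0.13 in the mutants and 0.31 in the WT.

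Beside the WT in the same medium, most of the genes were lower in the mutants without carbon and higher at 0.5 and 2% glucose. Without carbon 31 of the Δ*rco-3* means and 46 of the Δ*col-26* means lay at least 1 below the WT, where 2.97% and 8.14% of all genes tested did so. In the same medium 2 and 7 lay at least 1 above it, beside 4.27% and 7.29% of all genes. At 0.5% glucose 78 of the Δ*rco-3* means and 73 of the Δ*col-26* means lay at least 1 above the WT, beside 9.52% and 8.41% of all genes. At 2% glucose the counts were 73 and 84, beside 11.2% and 11.4% of all genes, and 0 genes in either mutant lay at least 1 below the WT. At 0.05% glucose the picture was mixed, with 42 at least 1 above and 10 at least 1 below the WT in Δ*rco-3*, and 48 above and 14 below in Δ*col-26*. Of all genes 21.1% lay above and 4.36% below in Δ*rco-3*, and 12.03% above and 5.45% below in Δ*col-26*. These values used the contrasts of the selection and are a description.

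Among the sugar transporters, *hgt-1* codes for a high-affinity glucose transporter. In Δ*rco-3* it had 501 and 498 FPKM without carbon, 265 and 276 FPKM at 0.05%, 255 and 258 FPKM at 0.5%, and 180.4 and 186 FPKM at 2% glucose. In Δ*col-26* the libraries had 317 and 316, 213 and 207, 172 and 170.2, and 157 and 157 FPKM in the same order. In the WT they had 2849 and 2687, 635 and 629, 16.8 and 20.7, and 8.66 and 8.69 FPKM. Both mutants were thus below the WT without carbon and at 0.05% glucose and above it at 0.5 and 2%, with no overlap of libraries in any medium. The fall from no carbon to 2% was 1.44 ± 0.0556 in Δ*rco-3* (SE, limma, adjusted p = 4.31e-15) and 1.00 ± 0.0556 in Δ*col-26* (adjusted p = 1.40e-12). The call in Δ*col-26* was lost with median-ratio scaling, at 0.92, and with a pseudocount of 5, at 0.99. The WT mean without carbon was 319.1 times that at 2% glucose, against ratios of 2.73 in Δ*rco-3* and 2.01 in the Δ*col-26* mutant.

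NCU04963 resembled *hgt-1* in the WT, with 1883 and 1973 FPKM without carbon, 456 and 462 FPKM at 0.05%, and 3.03 and 3.70 FPKM at 2% glucose. At 2% glucose it had 156 and 146 FPKM in Δ*rco-3* mycelium and 139 and 138 FPKM in Δ*col-26* mycelium. Its fall from no carbon to 2% was 2.26 ± 0.0509 in Δ*rco-3* (SE, limma, adjusted p = 7.65e-19) and 2.68 ± 0.0509 in Δ*col-26* (adjusted p = 3.82e-20). NCU09287, a putative sugar transporter, behaved otherwise. It had 399 and 389.8, 702 and 688, 547 and 566, and 455 and 452 FPKM over the 4 media in Δ*rco-3*. The Δ*col-26* libraries had 430.3 and 422, 599.9 and 599.9, 606 and 611, and 697 and 696 FPKM. The WT had 436 and 437, 7.59 and 7.87, 0.99 and 1.52, and 0.96 and 1.11 FPKM. Without carbon its mean was therefore 0.904 of the WT mean in Δ*rco-3* and 0.976 in the Δ*col-26* mutant, while at 2% glucose it was 438 times and 673 times the WT mean. No fall was called for it in either mutant, and its differences between no carbon and 2% were -0.20 in Δ*rco-3* and -0.71 in the Δ*col-26* mutant.

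Of the 13 loci in the list of sugar transporters, 3 were among the 100 genes. The list was drawn up with earlier results of these data known. It includes transporters that the paper names as responding to glucose in the WT of this same experiment. Its counts beside the share of all genes are therefore a description and not a test. Over the whole range, where 11.2% and 10.3% of all genes fell in the mutants, 9 of the 13 fell in Δ*rco-3* and 9 in the Δ*col-26* mutant, and none rose. From 0.05% to 0.5% none of the 13 was called in either mutant, where the limma differences had medians of 0.48 in Δ*rco-3* and 0.22 in the Δ*col-26* mutant.

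**Figure D3:**
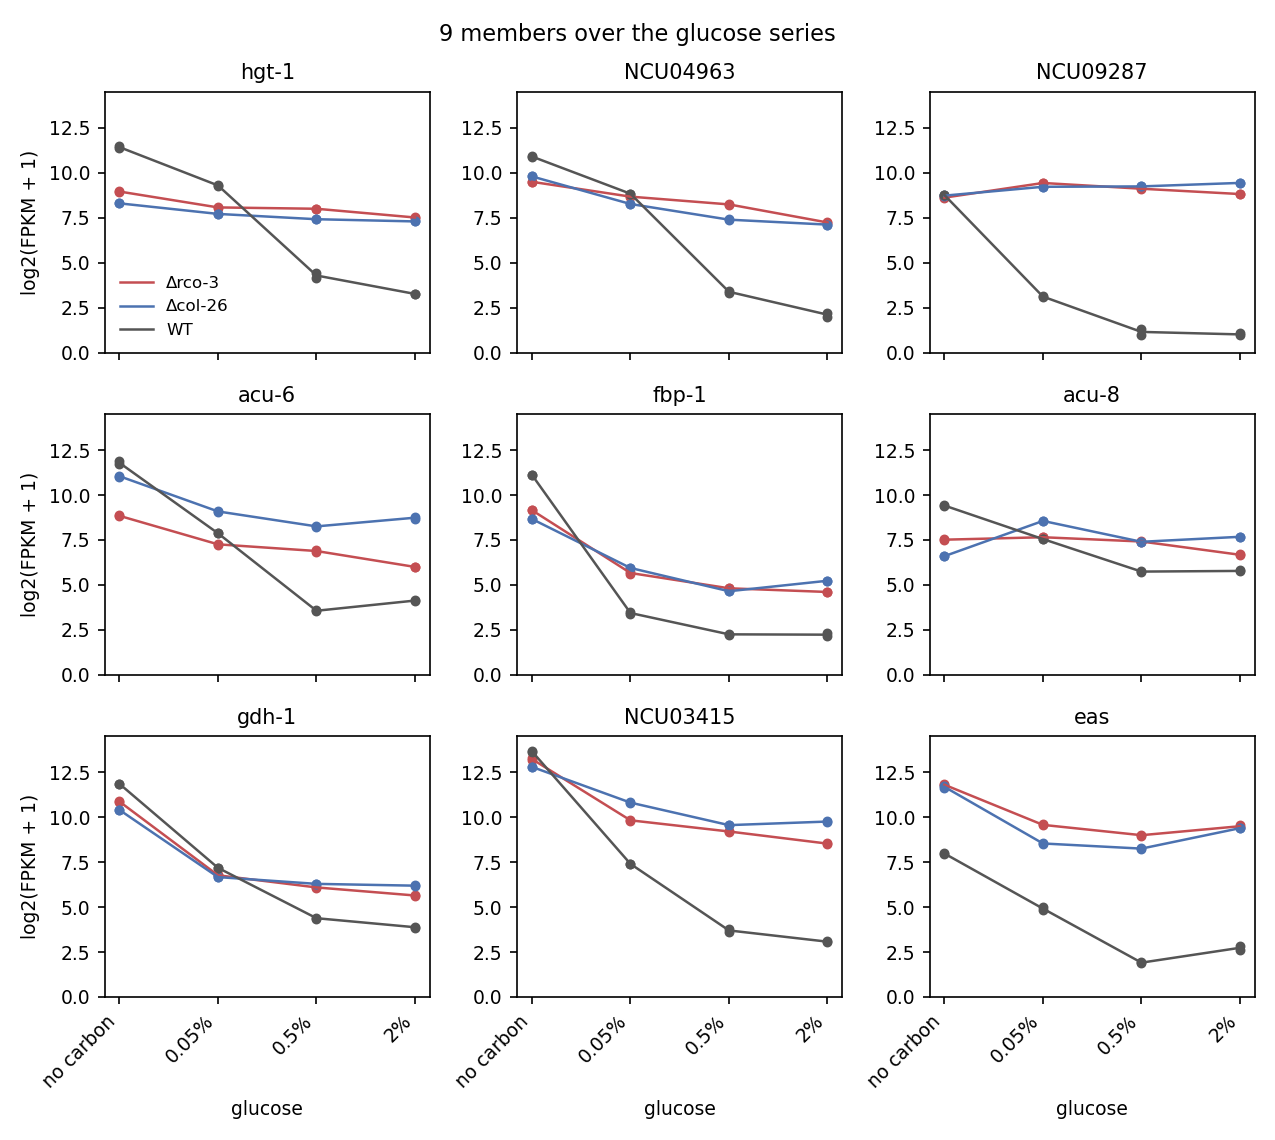
log2(FPKM + 1) of 9 of the genes in each library (points) with group means joined by lines, over the media in order of glucose, in Δrco-3 (red), Δcol-26 (blue) and WT (grey). For hgt-1, NCU04963 and NCU09287 the mutants lie far above the WT at 2% glucose, by 4.25, 5.12 and 7.80 in Δrco-3 and by 4.03, 5.01 and 8.42 in Δcol-26.

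The genes of the glyoxylate cycle and gluconeogenesis were high in the starved WT and lower in the starved mutants. *acu-6* codes for phosphoenolpyruvate carboxykinase, which draws carbon from the citric acid cycle into gluconeogenesis. In Δ*rco-3* it had 469.9 and 447, 148 and 156, 115 and 119.8, and 62.6 and 63.7 FPKM over the 4 media. Δ*col-26* had 2139 and 2088, 537 and 550.0, 310.0 and 299.8, and 412 and 442 FPKM. In the WT it had 3742 and 3349.7, 234 and 233, 10.5 and 11.2, and 16.8 and 16.3 FPKM. The mutants differed here, with Δ*rco-3* below Δ*col-26* in every medium and in every library. The difference was -2.20 ± 0.0467 without carbon (SE, limma, adjusted p = 1.98e-18) and -2.74 ± 0.0467 at 2% glucose (adjusted p = 3.19e-19). Within Δ*rco-3* the gene fell by 2.84 ± 0.0467 from no carbon to 2% glucose (adjusted p = 6.33e-21), and within Δ*col-26* by 2.31 ± 0.0467 (adjusted p = 1.04e-19).

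*fbp-1* codes for fructose-1,6-bisphosphatase, an enzyme that only gluconeogenesis needs. Its libraries without carbon had 567 and 572 FPKM in Δ*rco-3* mycelium and 402 and 409 FPKM in Δ*col-26* mycelium, against 2211 and 2239.5 FPKM in the WT. At 0.05% glucose they had 51.3 and 48.3 FPKM in Δ*rco-3* mycelium and 60.04 and 61.2 FPKM in Δ*col-26* mycelium, against 9.28 and 10.5 FPKM in the WT. The gene had the largest WT difference between no carbon and 0.05% of all 100, at 7.68, and in the mutants the same difference was 3.49 ± 0.0491 (Δ*rco-3*, SE, limma, adjusted p = 1.09e-21) and 2.72 ± 0.0491 (Δ*col-26*, adjusted p = 1.50e-20). At 2% glucose it had 23.1 and 23.8 FPKM in Δ*rco-3* mycelium and 36.6 and 36.6 FPKM in Δ*col-26* mycelium, against 3.98 and 3.46 FPKM in the WT.

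*acu-3* and *acu-9* code for isocitrate lyase and malate synthase, the enzymes that define the glyoxylate cycle. Without carbon *acu-3* had 230.2 and 224 FPKM in Δ*rco-3* mycelium and 141 and 138 FPKM in Δ*col-26* mycelium, against 2006 and 1827 FPKM in the WT. At 2% glucose it had 26.9 and 26.4 FPKM in Δ*rco-3* mycelium and 40.7 and 40.5 FPKM in Δ*col-26* mycelium, against 18.9 and 19.3 FPKM in the WT. Starved *acu-9* had 609 and 608 FPKM in Δ*rco-3* mycelium and 772 and 757 FPKM in Δ*col-26* mycelium, against 3462 and 3282 FPKM in the WT. The starved mean of *acu-3* was thus 0.118 of the WT mean in Δ*rco-3* and 0.0728 of it in Δ*col-26*, and that of *acu-9* was 0.180 and 0.227 of it. From no carbon to 2% *acu-3* fell by 3.04 in Δ*rco-3* and by 1.76 in the Δ*col-26* mutant, and *acu-9* by 3.07 and 2.73. The fall of *acu-3* was larger in Δ*rco-3* by 1.29 ± 0.0587 (SE, limma interaction, adjusted p = 4.75e-13).

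*acu-8*, which codes for an acetyl-CoA hydrolase, was the only one of the 100 genes called as higher at 2% glucose than without carbon in Δ*col-26*. There it had 96.3 and 95.9 FPKM without carbon, 375 and 378 FPKM at 0.05%, 168 and 168 FPKM at 0.5%, and 203 and 205 FPKM at 2% glucose. In Δ*rco-3* it had 185 and 179, 201 and 199.9, 165 and 174, and 103 and 99.4 FPKM in the same order. The WT had 704 and 661, 188 and 186, 51.9 and 53.4, and 53.0 and 55.0 FPKM. So the lowest libraries of Δ*col-26* were those without carbon, where the WT had its highest. No carbon minus 0.05% was -1.96 ± 0.0333 in Δ*col-26* (SE, limma, adjusted p = 6.17e-21) and -0.14 ± 0.0333 in Δ*rco-3* (adjusted p = 0.000905, below the size needed for a call). The difference between these responses was 1.82 ± 0.0471 (limma interaction, adjusted p = 9.64e-17).

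The symbol family of the *acu* genes and *fbp-1* held 7 genes, of which 5 were among the 100. In Δ*rco-3* 4 of the 7 fell from no carbon to 0.05% and 6 fell over the whole range, and none rose. In Δ*col-26* 4 fell and 2 rose from no carbon to 0.05%, 4 fell from 0.05% to 0.5%, and over the whole range 5 fell and 1 rose. Of all genes 9.84% fell over the first step and 11.2% over the whole range in Δ*rco-3*. The Δ*col-26* shares were 11.1% that fell and 10.6% that rose over the first step, 0.2% that fell over the second, and 10.3% that fell and 10.5% that rose over the whole range. The 2 outside the set were *acu-5*, for acetyl-CoA synthetase, and *acu-15*. *acu-5* averaged 197 FPKM in Δ*rco-3* mycelium and 106 FPKM in Δ*col-26* mycelium without carbon, against 1143 FPKM in the WT. None of the 8 genes in a family of glycolytic symbols was among the 100. Over the whole range 4 of those 8 rose and none fell in Δ*rco-3*, and 1 rose and 1 fell in Δ*col-26*. Of all genes 697 of 7981 rose in Δ*rco-3*, and 10.5% rose and 10.3% fell in Δ*col-26*, so the counts of 1 in 8 are near the background.

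Genes of fatty acid oxidation formed the next group. *acd-1*, *acd-2* and *acd-3* are named for acyl-CoA dehydrogenases, *fox-2* codes for the multifunctional enzyme of peroxisomal β-oxidation, *pex11* for a protein of the peroxisomal membrane, and NCU00299 is annotated as a peroxisomal enoyl-CoA isomerase. Without carbon *fox-2* had 323 and 324 FPKM in Δ*rco-3* mycelium and 176 and 180.5 FPKM in Δ*col-26* mycelium, against 628 and 607 FPKM in the WT. At 2% glucose it had 63.2 and 61.4 FPKM in Δ*rco-3* mycelium and 91.8 and 92.8 FPKM in Δ*col-26* mycelium, against 16.8 and 17.4 FPKM in the WT. The range of the gene was thus narrower in both mutants than in the WT, and narrowest in Δ*col-26*. From no carbon to 2% glucose it fell by 2.36 in Δ*rco-3*, while the difference in Δ*col-26* was 0.94 and was not called.

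All 6 of these genes fell over the whole range in Δ*rco-3*, by 1.13 to 3.75, and 3 of them, *acd-2*, *acd-3* and *pex11*, did so in Δ*col-26*, by 1.42 to 2.36. The fall of *acd-3* in Δ*rco-3* was not called with median-ratio scaling, at 0.86. The response was larger in Δ*rco-3* than in Δ*col-26* for 4 of the 6, by 2.09 for *acd-1*, 1.73 for NCU00299, 1.41 for *fox-2* and 1.39 for *acd-2* (limma interaction, adjusted p from 2.07e-16 to 5.16e-08). NCU00299 overlaps another locus, NCU00300, and reads shared between them cannot be told apart. In the wider family of 24 *acd*, *fox* and *pex* symbols, which holds 5 of the 100 genes, 9 fell over the whole range in Δ*rco-3*, beside 11.2% of all genes, and, beside 10.3%, 4 in the Δ*col-26* mutant, and none rose.

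*gdh-1* codes for the NAD-specific glutamate dehydrogenase, which breaks glutamate down. It had 1872 and 1853, 108 and 108, 65.4 and 68.9, and 50.5 and 47.4 FPKM over the 4 media in Δ*rco-3*. Δ*col-26* libraries had 1339 and 1360.4, 100.2 and 101, 78.2 and 76.2, and 71.0 and 72.9 FPKM. The WT had 3643 and 3734, 143 and 145, 20.2 and 19.4, and 14.04 and 13.4 FPKM. The fall at 0.05% glucose was below that of the WT but kept most of its size on the log2 scale. The one from 0.05% to 0.5% was reduced far more. No carbon minus 0.05% was 4.10 ± 0.0343 in Δ*rco-3* (SE, limma, adjusted p = 3.28e-24) and 3.73 ± 0.0343 in Δ*col-26* (adjusted p = 1.19e-24), against 4.67 in the WT. For 0.05% minus 0.5% the differences were 0.68 in Δ*rco-3* and 0.38 in the Δ*col-26* mutant, neither of them called, against 2.80 in the WT.

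*tca-2* and *npd-2* stood apart from each other. Starved *tca-2* had 189 and 187 FPKM in Δ*rco-3* mycelium and 83.8 and 82.3 FPKM in Δ*col-26* mycelium, against 802 and 792 FPKM in the WT. At 0.05% glucose it had 142 and 151 FPKM in Δ*rco-3* mycelium and 206 and 210.1 FPKM in Δ*col-26* mycelium, against 53.1 and 52.0 FPKM in the WT. As for *acu-8*, the starved libraries of Δ*col-26* were its lowest. No carbon minus 0.05% was -1.31 ± 0.0387 in Δ*col-26* (SE, limma, adjusted p = 4.22e-17) and 0.36 in Δ*rco-3*, which was not called. *npd-2* fell over this step in both mutants, by 3.09 in Δ*rco-3* and 2.38 in the Δ*col-26* mutant. NCU00673, annotated as a serine protease, had 2659 and 2616 FPKM in Δ*rco-3* mycelium and 2424 and 2383 FPKM in Δ*col-26* mycelium without carbon, against 4129 and 4088 FPKM in the WT, and fell over the whole range by 2.46 and 2.69 in the mutants. NCU00677, annotated as a phenylacetyl-CoA ligase and named after its values were seen, had 111 and 114 FPKM in Δ*rco-3* mycelium and 74.1 and 75.2 FPKM in Δ*col-26* mycelium, against 227 and 234 FPKM in the WT, in the same medium.

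Genes for the use of stored and other sugars came next. *tre-1* codes for trehalase, which splits the storage sugar trehalose. It had 124 and 121, 50.1 and 48.8, 37.5 and 37.9, and 49.1 and 46.1 FPKM over the 4 media in Δ*rco-3*. Δ*col-26* had 106 and 105, 85.3 and 85.2, 75.2 and 72.1, and 83.2 and 79.9 FPKM. The WT had 81.9 and 82.9, 11.5 and 11.9, 1.18 and 1.62, and 1.23 and 1.5 FPKM. Both mutants were above the WT in all 4 media. *tre-1* fell over the whole range by 1.35 ± 0.0632 in Δ*rco-3* (SE, limma, adjusted p = 1.05e-13), while the 0.37 in Δ*col-26* was not called. *tre-1* overlaps the locus NCU10847.

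*gla-1* codes for glucoamylase, a secreted enzyme that frees glucose from starch. In the WT it had 529 and 492 FPKM without carbon, 246 and 239 FPKM at 0.05% and 9.03 and 8.86 FPKM at 0.5% glucose. At 0.05% glucose the mutants lay far below, at 20.7 and 22.7 FPKM in Δ*rco-3* mycelium and 16.8 and 17.1 FPKM in Δ*col-26* mycelium. The gene that fell mainly in the second step in the WT thus fell in the first step in the mutants, by 2.46 ± 0.0475 in Δ*rco-3* (SE, limma, adjusted p = 9.48e-20) and 3.24 ± 0.0475 in Δ*col-26* (adjusted p = 6.52e-22), with a second step of 0.42 and 0.08 that was not called. *gh3-3*, named for a family of glycoside hydrolases, kept a wide range, with 129 and 133 FPKM in Δ*rco-3* mycelium and 242 and 246 FPKM in Δ*col-26* mycelium without carbon, against 191 and 193 FPKM in the WT. It fell by 4.65 over the whole range in each mutant. *gh31-3*, named for another such family, was not called in either mutant, with differences of 0.76 in Δ*rco-3* and -0.10 in the Δ*col-26* mutant, and at 2% glucose it had 47.6 and 46.6 FPKM in Δ*rco-3* mycelium and 93.3 and 96.7 FPKM in Δ*col-26* mycelium, against 1.38 and 1.69 FPKM in the WT. *gh31-3* overlaps NCU04675. Of 74 tested genes with glycoside hydrolase symbols, 4 of them among the 100, 15 fell and 1 rose over the whole range in Δ*rco-3*, where 11.2% of all genes fell and 697 of 7981 rose. In Δ*col-26* 18 fell and 3 rose, where 10.3% of all genes fell and 10.5% rose.

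*xr* and *xyk-1* code for xylose reductase and xylulokinase of pentose catabolism. Both fell over the whole range in both mutants, *xr* by 1.58 in Δ*rco-3* and 1.64 in the Δ*col-26* mutant, and *xyk-1* by 1.85 and 1.97. The remaining gene of this family of 3, *xdh-1*, was not one of the 100 and also fell in both. *xr* overlaps NCU08385. *clr-1* and *xlr-1* code for the transcription factors of cellulose and of xylan use. Without carbon *clr-1* had 35.7 and 34.7 FPKM in Δ*rco-3* mycelium and 12.7 and 12.4 FPKM in Δ*col-26* mycelium, against 38.7 and 40.1 FPKM in the WT. The mutants differed by 1.42 ± 0.0414 (SE, limma, adjusted p = 2.68e-16), with no overlap of libraries. *clr-1* fell by 1.00 over the whole range in Δ*rco-3*, a call lost with median-ratio scaling (0.73) and with a pseudocount of 5 (0.86), and could not be called in Δ*col-26*, where it stayed under 20 FPKM. *xlr-1* had 28.5 and 29.1 FPKM in Δ*rco-3* mycelium and 15.5 and 15.4 FPKM in Δ*col-26* mycelium without carbon, against 26.9 and 27.2 FPKM in the WT, and was not called over the whole range in either mutant (0.91 and 0.78).

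**Figure D4:**
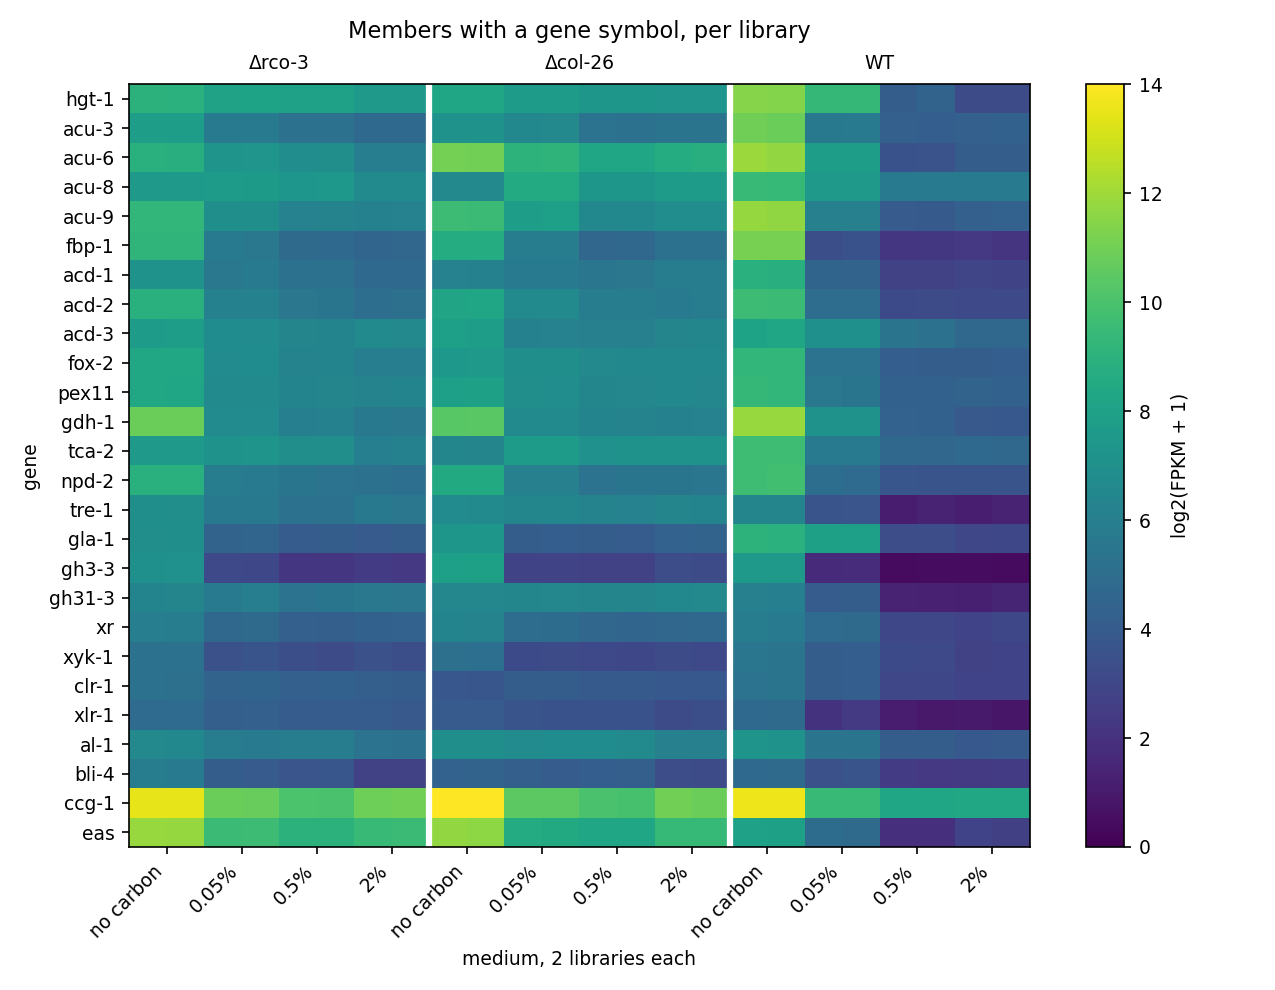
log2(FPKM + 1) of the 26 genes with a symbol (rows) in each of the 24 libraries (columns), with Δrco-3 at the left, Δcol-26 in the middle and WT at the right, and in each strain the media in order of glucose with 2 libraries each. The WT block is darker from 0.5% glucose on, where tre-1 and gh31-3 are below 2 FPKM, while in the mutants both stay above 37 FPKM.

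The last of the named groups holds genes known from conidiation, the clock and light. *eas* codes for the hydrophobin of the conidial rodlet layer and was fixed as a marker of conidia. Without carbon it had 3626 and 3499.9 FPKM in Δ*rco-3* mycelium and 3393 and 3179 FPKM in Δ*col-26* mycelium, against 255 and 246 FPKM in the WT. At 0.5% glucose it had 503 and 516 FPKM in Δ*rco-3* mycelium and 301 and 305 FPKM in Δ*col-26* mycelium, against 2.81 and 2.70 FPKM in the WT. Both mutants exceeded the WT in every medium, by 14.2 times in the Δ*rco-3* mean and 13.1 times in the Δ*col-26* mean without carbon. *eas* fell over the whole range by 2.31 in Δ*rco-3* and 2.30 in the Δ*col-26* mutant, and in Δ*col-26* it rose again by 1.14 ± 0.0581 from 0.5% to 2% glucose (SE, limma, adjusted p = 1.74e-11). The conidial markers outside the set were also far above the WT in the mutants, with the values given above, and their part in this was not tested.

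*ccg-1*, a clock-controlled gene also known as glucose-repressible, was the most abundant of the 100 in the starved mutants. It had 11242 and 11286 FPKM in Δ*rco-3* mycelium and 24775 and 24392 FPKM in Δ*col-26* mycelium without carbon, against 12605 and 12826 FPKM in the WT. At 2% glucose it had 1909.9 and 2041 FPKM in Δ*rco-3* mycelium and 2068 and 1853 FPKM in Δ*col-26* mycelium, against 338 and 338 FPKM in the WT. The starved Δ*rco-3* libraries were thus near the WT and those of Δ*col-26* above it, and the mutants differed by -1.13 ± 0.0431 (SE, limma, adjusted p = 1.69e-14). *bli-4*, named for its induction by blue light, had 57.1 and 53.3 FPKM in Δ*rco-3* mycelium and 20.2 and 20.7 FPKM in Δ*col-26* mycelium without carbon, against 26.3 and 27.2 FPKM in the WT. Its fall over the whole range was 3.03 in Δ*rco-3* and 1.17 in the Δ*col-26* mutant. In Δ*col-26* the call was lost with median-ratio scaling (1.09) and with a pseudocount of 5 (0.91). *al-1*, for the phytoene desaturase of carotenoid synthesis, fell over the whole range in Δ*rco-3* by 1.28, while the 0.88 in Δ*col-26* was not called. Of the 6 carotenoid symbols, only *al-1* was among the 100, and 5 fell over the whole range in Δ*rco-3* and 3 in the Δ*col-26* mutant. Of 16 symbols for conidiation, clock and blue light genes, 3 of them among the 100, 8 fell and none rose over the whole range in each mutant. The share of all genes that fell was 11.2% in Δ*rco-3* and 10.3% in the Δ*col-26* mutant.

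Of the 100 genes, 74 carry no symbol, and several of these had the highest levels. NCU03415 had 12697 and 13145, 167 and 168, 11.3 and 12.8, and 7.29 and 7.56 FPKM over the 4 media in the WT, the largest WT difference between no carbon and 2% of the set at 10.58. In Δ*rco-3* it had 9849.8 and 9346, 916 and 891, 588 and 586, and 376 and 359.6 FPKM. Δ*col-26* had 7073 and 7107, 1769.6 and 1808, 748 and 753, and 865 and 859 FPKM. Both mutants kept most of the starved level, and at 2% glucose their means were 49.5 and 116 times that of the WT. Over the whole range it fell by 4.70 ± 0.0404 in Δ*rco-3* (SE, limma, adjusted p = 1.32e-24) and by 3.04 ± 0.0404 in Δ*col-26* (adjusted p = 1.65e-22).

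NCU09698 had 2772 and 2754 FPKM in Δ*rco-3* mycelium and 2588 and 2594 FPKM in Δ*col-26* mycelium without carbon, against 2789 and 2823 FPKM in the WT. At 0.05% glucose it had 549 and 533 FPKM in Δ*rco-3* mycelium and 527 and 535 FPKM in Δ*col-26* mycelium, against 12.9 and 13.4 FPKM in the WT. Starved levels were near those of the WT, while on glucose the mutants were far above it. The gene fell over the whole range by 4.90 in Δ*rco-3*, against 9.81 in the WT, and was also called in Δ*col-26*. NCU06043, NCU02580, NCU07439 and NCU04078 fell over the whole range in both mutants too, by 2.13 to 4.80 in Δ*rco-3* and 1.22 to 2.86 in Δ*col-26*. The largest falls were those of NCU03639 (5.59), *gdh-1* (5.22) and NCU04914 (4.97) in Δ*rco-3*, and those of NCU02603 (5.24), NCU09958 (5.14) and NCU06616 (5.09) in Δ*col-26*.

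A few genes stayed high on glucose in the mutants. NCU02128 had 70.4 and 71.6 FPKM in Δ*rco-3* mycelium and 48.2 and 47.1 FPKM in Δ*col-26* mycelium at 2% glucose, against 1.05 and 0.77 FPKM in the WT, and no fall was called for it in either mutant. NCU07042 had 51.6 and 58.7 FPKM in Δ*rco-3* mycelium and 59.3 and 59.5 FPKM in Δ*col-26* mycelium at 2% glucose, against 4.11 and 5.68 FPKM in the WT. Without carbon it had 74.98 and 73.7 FPKM in Δ*rco-3* mycelium and 30.8 and 32.1 FPKM in Δ*col-26* mycelium, against 183 and 167 FPKM in the WT. With *acu-8* and *tca-2* it was the third of the 3 genes that rose from no carbon to 0.05% in Δ*col-26*, by 1.42 ± 0.108 (SE, limma, adjusted p = 2.33e-10). NCU07042 overlaps NCU15201. NCU05493 and NCU06358, named after their values were seen, had 74.1 to 75.3 FPKM and 129 to 134 FPKM in Δ*rco-3* at 2% glucose and 67.0 to 68.2 FPKM and 101 to 102 FPKM in Δ*col-26*, against 0.89 to 0.94 FPKM and 1.58 to 1.75 FPKM in the WT.

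Other genes were far below the WT in the starved mutants. NCU06616 had 3.35 and 6.49 FPKM in Δ*rco-3* mycelium and 31.2 and 35.0 FPKM in Δ*col-26* mycelium without carbon, against 123 and 124 FPKM in the WT. At 0.05% glucose it was listed at 0 in all 4 mutant libraries, against 6.94 and 9.27 FPKM in the WT, and at 0.5 and 2% it was listed at 0 in every library of the 3 strains. NCU04537 and NCU05629 were named after their values were seen. NCU04537 had 0.14 and 0.35 FPKM in Δ*rco-3* mycelium and 0.42 and 0.31 FPKM in Δ*col-26* mycelium without carbon, against 37.4 and 37.2 FPKM in the WT, and stayed below 0.2 FPKM on glucose in both mutants. NCU05629 had 7.07 and 7.22 FPKM in Δ*rco-3* mycelium and 5.93 and 5.21 FPKM in Δ*col-26* mycelium without carbon, against 51.1 and 53.5 FPKM in the WT. NCU04537 was the only one of the 100 genes with a starved mean under 1 FPKM in either mutant.

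The naming rule took in 52 of the genes and left 48. Without carbon the 48 had means of 0.245 to 1118 FPKM in Δ*rco-3* (median 90.9) and 0.365 to 2853 FPKM in Δ*col-26* (median 76.8), against 20.6 to 1496 FPKM in the WT (median 146). At 2% glucose their medians were 23.6 FPKM in Δ*rco-3* mycelium and 38.3 FPKM in Δ*col-26* mycelium, against 3.92 FPKM in the WT. Over the whole range 34 of the 48 fell in Δ*rco-3*, beside 11.2% of all genes, and 26 in Δ*col-26*, beside 10.3%, and none rose.

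Few of the genes were called as different between the mutants within the same medium, though smaller differences were common. The limma test without the other 2 criteria gave an adjusted p below 0.001 for 69 of them without carbon. At 0.05, 0.5 and 2% glucose it did so for 58, 55 and 73, and most of these differences were below 1. Without carbon, 7 of the 100 were higher in Δ*rco-3* than in Δ*col-26*, beside 2.47% of all genes, and 8 were lower, beside 2.84%. At 0.05% glucose 1 was higher, beside 0.664%, and 3 were lower, beside 0.739%. At 0.5% glucose 1 was higher, beside 0.338%, and 5 were lower, beside 0.927%. At 2% glucose 1 was higher, beside 0.601%, and 12 were lower, beside 1.73%. The median of all genes tested was itself 0.16 to 0.36 higher in Δ*rco-3* in the 4 media. With median-ratio scaling, which brings that median to at most 0.03, the split was 2 higher and 9 lower without carbon, 0 and 11 at 0.05%, 0 and 8 at 0.5%, and 0 and 17 at 2% glucose. The direction of the calls as a group without carbon thus depends on the scaling, and at 2% glucose most calls were lower in Δ*rco-3* under both.

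The largest difference without carbon was in NCU06524, which had 241 and 234 FPKM in Δ*rco-3* mycelium and 1654 and 1713 FPKM in Δ*col-26* mycelium, with 764 and 699.9 FPKM in the WT. It was lower in Δ*rco-3* by -2.82 ± 0.0466 (SE, limma, adjusted p = 3.12e-20). NCU06616 at -2.58 and *acu-6* at -2.20 followed. In the other direction *clr-1* (1.42), *bli-4* (1.39) and NCU07042 (1.21) were higher in Δ*rco-3*. At 2% glucose the lowest in Δ*rco-3* were *acu-6* (-2.74), NCU06043 (-1.72) and NCU04496 (-1.70), and the 1 higher gene was NCU08541 with 236 and 235 FPKM in Δ*rco-3* mycelium and 116 and 114 FPKM in Δ*col-26* mycelium, against 30.4 and 29.6 FPKM in the WT. NCU04249, named after its values were seen, was called as lower in Δ*rco-3* in all 4 media, and so was *acu-6*. It had 1133 and 1102 FPKM in Δ*rco-3* mycelium and 2846 and 2860.3 FPKM in Δ*col-26* mycelium without carbon, and 192 and 179.5 FPKM in Δ*rco-3* mycelium and 567 and 544 FPKM in Δ*col-26* mycelium at 2% glucose.

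The response to glucose was compared between the mutants by the interaction term. A fall called larger here is a higher difference between no carbon and glucose, also where a gene did not fall in a mutant. From no carbon to 0.05% the fall was larger in Δ*rco-3* for 16 of the genes, beside 3.33% of all genes tested for the interaction, and smaller for 12, beside 3.91%. From no carbon to 2% it was larger in Δ*rco-3* for 32, beside 4.32%, and smaller for 6, beside 2.61%. With median-ratio scaling the last counts were 21 and 7, so the share of larger falls among the calls moved, while it stayed above that of smaller falls. Among the 32 were *acu-3*, *acu-8*, *fbp-1*, *acd-1*, *acd-2*, *fox-2*, *gdh-1*, *tca-2*, *clr-1* and *bli-4*, and among the 6 was *ccg-1* (-1.14). Of these, *acu-8*, *tca-2* and *clr-1* did not fall in Δ*col-26*, at -1.08, -0.75 and -0.09, and the 0.84 of *acu-8* in Δ*rco-3* was not called.

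NCU07748 had the largest excess in Δ*rco-3*, at 2.69 ± 0.151 (SE, limma interaction, adjusted p = 1.18e-11). It had 43.1 and 41.8, 3.53 and 2.57, 3.77 and 4.15, and 2.16 and 2.09 FPKM over the 4 media in Δ*rco-3*. Δ*col-26* had 20.4 and 19.7, 19.8 and 18.8, 21.2 and 21.6, and 8.85 and 8.71 FPKM. The gene fell at 0.05% glucose in Δ*rco-3* and only at 2% in Δ*col-26*, where that call was lost with a pseudocount of 5 (0.86) and with median-ratio scaling (1.02). NCU08561 followed at 2.37 and *tca-2* at 2.21. In the other direction NCU02603 had 47.3 and 48.3 FPKM without carbon and 11.8 and 14.2 FPKM at 2% glucose in Δ*rco-3*, while in Δ*col-26* it had 72.9 and 70.0 FPKM and then 0.40 and 1.64 FPKM. Its difference in response was -3.42 ± 0.330 (adjusted p = 3.23e-08). NCU02603 overlaps NCU02602. NCU06616 at -2.58 and NCU06123 at -2.04 were next, and NCU06123, which overlaps NCU15321, had 60.4 and 61.7 FPKM in Δ*rco-3* mycelium and 185 and 189 FPKM in Δ*col-26* mycelium without carbon, against 52.4 and 53.9 FPKM in the WT.

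**Figure D5:**
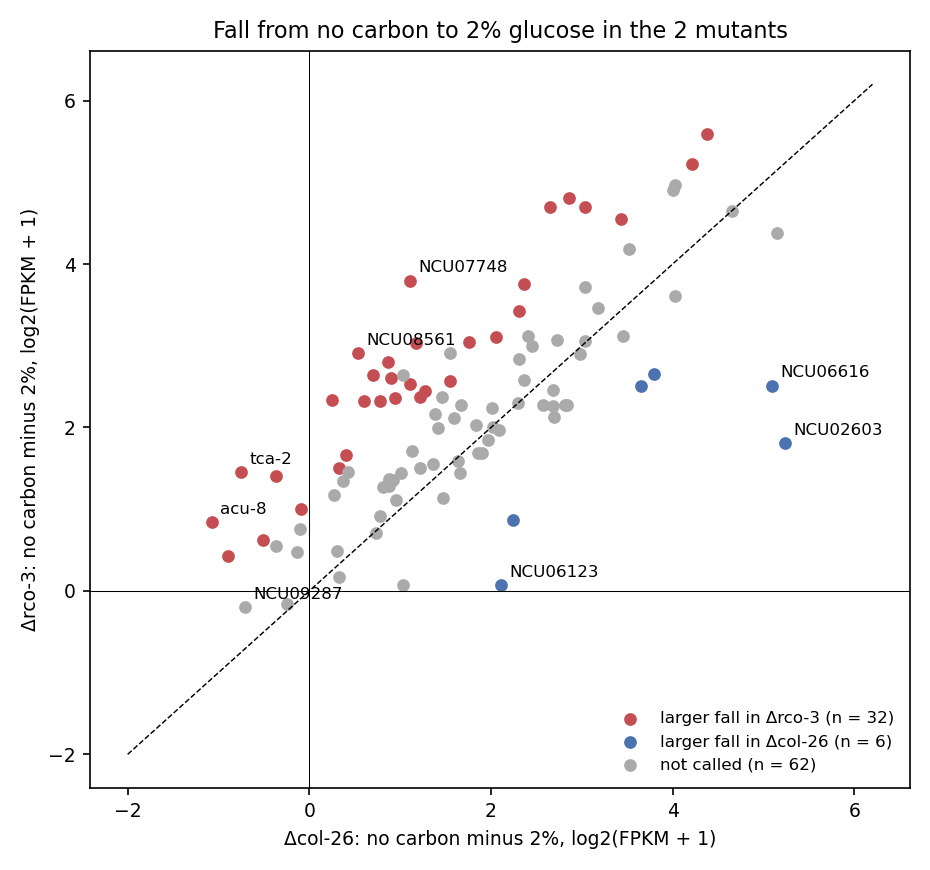
Difference between no carbon and 2% glucose of each of the 100 genes in Δrco-3 (vertical axis) and Δcol-26 (horizontal axis), on the log2(FPKM + 1) scale, with points coloured by the limma interaction call and a dashed line where both responses are equal. The 32 red points lie above the line and the 6 blue ones below it, and acu-8 lies left of 0 at -1.08 in Δcol-26.

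The genes lay on all 7 chromosomes of the assembly NC12, from 9 on chromosome VII to 22 on chromosome I, and made up 0.797% of the loci of chromosome III to 1.33% of those of chromosome V. A neighbouring pair of members, with no other locus between, occurred 7 times and took in 14 of the genes. The pairs given here were chosen after their values were seen. On chromosome VI *fbp-1* (chrVI:854430-856333) lies 940 bases from NCU04796 (chrVI:850962-853489), and *pex11* (chrVI:877350-878844) lies 354 bases from *npd-2* (chrVI:879199-880994). On chromosome I *tca-2* (chrI:2463840-2466909) lies 302 bases from NCU02481 (chrI:2460652-2463537). Neighbours did not always share a response, as NCU02127 had 24.8 and 25.01 FPKM in Δ*rco-3* at 2% glucose beside 125 and 125 FPKM without carbon, while its neighbour NCU02128 did not fall. In all, 21 of the 100 genes overlap another annotated locus, and how the counting shared reads between such loci is not given in the sources used here.

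At the edge of the selection, NCU10506 was just inside, with a WT difference of 1.006 between 0.05% and 0.5%, followed by NCU09646 and NCU09407, with smallest differences of 1.009 and 1.019. Just outside were NCU00454, NCU04904 and NCU09160, with smallest differences of 0.996, 0.995 and 0.988. NCU05571, with 19.4 FPKM, was the closest below the minimum level of the starved WT, and NCU00250, with 20.6 FPKM, the closest above it. In the mutants the 3 genes just inside all fell over the whole range, by 2.27 to 3.46 in Δ*rco-3* and 1.67 to 3.17 in Δ*col-26*. Scaling the libraries by median ratios gave a set of 108 genes, of which 76 were among the 100.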

How the data were processed

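RNA-Seq of 3 strains in 4 media gave 24 libraries, which the labels map to strain, medium and replicate. The deposited values are FPKM per locus. Per the study's methods the authors used Trimmomatic 0.36 for trimming, Bowtie2 for alignment against transcripts predicted for OR74A and RSEM 1.2.8 for quantification, while HISAT2 2.1.0 stands in the submitters' processing notes. The authors' tests with DESeq 1.5.1 were not used, since FPKM are not counts. Because FPKM depend on all fragments of a library, the values of every gene move when abundant genes change. Depth is not given. The steps of 21 low genes put all libraries at 96.1 to 102% of the median one, though genes with shared steps favour similar depths. Replicates had Pearson's r of 0.998 to 0.999 across genes, which are not independent replicates.

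Tests were run with limma 3.58.1 in R 4.3.3 (trended eBayes) on log2(FPKM + 1), with all 12 groups in 1 fit. The 7981 genes tested had a group mean of at least 1 FPKM, and the fit had 12 residual degrees of freedom and 6.31 from the prior. This scale understates the change of low genes. The script was tested on simulated data. P-values measure the spread between duplicates. All 9730 loci but 1 matched the RefSeq table of NC12 (9729), which gave symbols and coordinates, and no sequence was used.

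The members and lists were chosen with earlier results of these data known, and the symbol families also after the values were seen. Genes named were the 12 highest and the 6 with the largest difference in the WT, all with a symbol, those in the lists of sugar transport and fatty acid oxidation, the 3 largest and 3 smallest responses in each mutant, the 3 largest calls per direction between the mutants without carbon, at 2% and for the response, and the 3 on each side of the threshold. Alternatives were pseudocounts of 0.1 and 5, no filter, a replicate block, mutant libraries only, median-ratio scaling, no trend, no minimum FPKM and leaving out each library.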

Additional observations from a re-analysis of the deposited data

Results flagged for a closer look

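The response from no carbon to 2% glucose differed between the mutants by the limma interaction test for 38 of the 100 genes, and the 3 largest in each direction are given here. The difference, Δ*rco-3* minus Δ*col-26*, was 2.69 for NCU07748, 2.37 for NCU08561 and 2.21 for *tca-2*. NCU07748 fell in both mutants, and its fall was larger in Δ*rco-3*. NCU08561 and *tca-2* fell in Δ*rco-3*, while in Δ*col-26* their responses were 0.53 and -0.75 and were not called. The difference was -3.42 for NCU02603, -2.58 for NCU06616 and -2.04 for NCU06123. NCU02603 fell in both mutants, and its fall was larger in Δ*col-26*. NCU06616 and NCU06123 fell in Δ*col-26*, while in Δ*rco-3* their responses were 2.51 and 0.07 and were not called. In Δ*rco-3* NCU06616 stayed under 20 FPKM and so could not be called. NCU06616 is listed at 0 at 2% glucose in both mutants, so its difference is that of the starved levels. Groups of 2 libraries are too small to look for single libraries that stand apart.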

How the results depend on the processing

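Numbers of members called stayed within 1.5 times of those reported in most settings. For 0.05% minus 0.5% in Δ*rco-3*, 1 gene was called without a minimum FPKM, against 0. For 0.5% minus 2% in Δ*col-26*, 2 were called with a pseudocount of 5, against 4. For Δ*rco-3* minus Δ*col-26* at 0.05% glucose, 11 were called with median-ratio scaling and 7 without a minimum FPKM, against 4. The selection itself gave 59 genes with a pseudocount of 5 and 132 with a pseudocount of 0.1. The cause of these changes was not tested. Leaving out 1 library gave 68 to 69, 0 to 0, 5 to 7 and 77 to 78 calls for the contrasts within Δ*rco-3* (no carbon to 0.05%, 0.05 to 0.5%, 0.5 to 2% and the whole range), and 61 to 61, 9 to 9, 4 to 7 and 62 to 65 within Δ*col-26*. The 7 came without replicate 2 of Δ*col-26* at 2% glucose, with 6 genes that rose. Between the mutants the ranges were 15 to 15, 3 to 5, 4 to 6 and 12 to 14 over the 4 media, and 26 to 29 and 36 to 39 for the responses. The selection gave 99 to 103 genes. The replicate block changed no count of calls (for example 78 and 64 over the whole range). Same-numbered libraries share only a number, as the correlation of their deviations ran from -0.111 to 0.125 over 28 pairs of groups. Over 82 results for single genes, 646 values kept their call and 10 lost it, with 0 reversed. Precision is limited by 2 libraries a group and unknown depth.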
